A study of Mus musculus with 2 samples.

Results

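The 9 genes described here encode receptors with which phagocytes bind dying cells, modified lipoproteins and debris, and 1 ligand that bridges such cells to them. They were followed in cells from mouse tumours that had been sorted on the red fluorescent protein mCherry. The members are the receptor tyrosine kinases Mertk and Axl, their ligand Gas6, the scavenger receptors Cd36, Msr1, Stab1 and Marco, the endocytic receptor Lrp1 and the co-receptor Cd14. They were found by symbol, and all 9 of 9 names matched a row among the 31054 features. Single-cell expression was measured with the 10x Genomics 3′ v2 chemistry in 1 library from adult mice aged 24 weeks and 1 library from young mice aged 4 weeks. Both groups carried the label d7 and came from pooled tumours, and no strain, tumour line, allele or agent was named in the sources used here, nor which cells carried the mCherry construct. With 1 library per age, age cannot be told apart from the pool, the sort and the library, and every interval below covers counting error only.

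After binding a dying cell, a macrophage reads phosphatidylserine on its surface, engulfs it and handles the lipid load. MERTK and AXL do not bind that lipid themselves: the secreted proteins GAS6 and PROS1 bridge it to the receptor. CD36 takes up oxidised lipoproteins and fatty acids, MSR1 and MARCO bind polyanionic ligands including bacteria, STAB1 clears modified proteins, LRP1 takes up protease complexes and associates with calreticulin on dying cells, and CD14 carries lipopolysaccharide to TLR4 and can also tether dying cells.

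In mm10, with GENCODE M21 gene bounds, Mertk lies at chr2:128698956-128802894 on the plus strand. The other 8 genes lie on the minus strand: Axl at chr7:25757273-25788705, Gas6 at chr8:13465374-13494490, Cd36 at chr5:17781690-17888801, Msr1 at chr8:39581685-39642673, Stab1 at chr14:31139013-31168641, Marco at chr1:120474538-120505024, Lrp1 at chr10:127538161-127621148 and Cd14 on chromosome 18. All 9 are annotated as protein-coding.

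The adult library held 6279 barcodes and 70988070 UMIs (unique molecular identifiers, each counting 1 captured RNA molecule), and the young library 7558 barcodes and 84862471 UMIs. After filters, 5773 adult and 7089 young cells remained, with medians of 9659 and 9842 UMIs, and 97 kept cells had a barcode found in both libraries. Cells with at least 1 UMI of Csf1r, the receptor for the macrophage growth factor CSF1, were 4551 of the adult cells (78.8%) and 5738 of the young cells (80.9%). Of these Csf1r cells, 4144 adult and 5319 young cells fell in clusters led by macrophage and monocyte markers, and 179 and 199 in clusters rich in mCherry UMIs. A Csf1r UMI was found in 90.2% of adult and 87.5% of young macrophage/monocyte cells, but also in 13.3% of adult and 31.6% of young T cells at medians of 4375 and 8568 UMIs, so the gate admitted some other cells. The 7 neutrophil markers, all detected, summed to 200.4 CPM in adult and 151 CPM in young Csf1r cells.

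Mertk and Cd36 were the members that fell in adult Csf1r cells. Levels are counts per 1000000 of the summed UMIs (CPM). Measured members reached 10 CPM in at least 1 of the groups, and a call needed a change of 1.5-fold or more with a 95% interval of the ratio without 1. Of 7 measured members 0 were called higher and 2 lower, against 1.69% higher and 2.87% lower among 6736 features. The median log2 ratio (pseudocount 5 CPM) was -0.29 over the 7 members and -0.03 over all those features.

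Mertk had 5.36 CPM in adult and 11.8 CPM in young Csf1r cells. That is 2.21-fold lower in adult cells, a ratio of 0.453 (0.396 to 0.517) from 302 adult and 845 young UMIs. At least 1 UMI was found in 6.0% of adult and 12.5% of young cells. With every cell thinned to 5000 UMIs, which left 3404 adult and 4255 young cells, the ratio was 0.438 (0.344 to 0.553) and the shares were 2.79% and 6.11%.

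Cd36 had 33.2 CPM in adult and 55.5 CPM in young Csf1r cells, 1.67-fold lower in adult cells with a ratio of 0.599 (0.567 to 0.633). A Cd36 UMI was found in 17.3% of adult and 29.0% of young cells, or 10.4% and 18.9% after thinning. In T cells, thinned shares were 2.94% in adult and 4.08% in young cells, and the source of these UMIs was not tested.

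Axl went the other way, at 118 CPM in adult and 91.2 CPM in young Csf1r cells. The ratio of 1.30 (1.25 to 1.34) was under the limit for a call, and Axl is the only 1 of the 7 measured members whose ratio lay above 1. After thinning the levels were 106 CPM in adult and 73.9 CPM in young cells, a ratio of 1.44 (1.34 to 1.54). The pooled levels mix classes that differ for Axl. Macrophage/monocyte cells, with or without Csf1r, had 111 CPM in adult and 76.1 CPM in young cells, a ratio of 1.46 (1.41 to 1.52). In mCherry-rich cells the ratio was 0.769 (0.725 to 0.817).

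The remaining measured receptors were lower in adult cells by less than the limit. Msr1 had 459.6 CPM in adult and 567 CPM in young cells, a ratio of 0.811 (0.798 to 0.824). Cd14 had 902 CPM in adult and 1104 CPM in young cells, a ratio of 0.817 (0.808 to 0.826). Lrp1 had 182 CPM in adult and 204 CPM in young cells, and Stab1 87.0 CPM and 92.3 CPM, with ratios of 0.895 and 0.943.

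The ligand and Marco were too rare to be measured. Gas6 had 19 UMIs in adult and 3 UMIs in young Csf1r cells, a ratio of 8.02 with a counting interval of 2.36 to 42.3, and no cell of either library held more than 1. Marco had 0 UMIs in 4551 adult cells, which allows a share of up to 0.0659% with a UMI, and 9 UMIs in 3 of 5738 young cells.

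**Figure D1:**
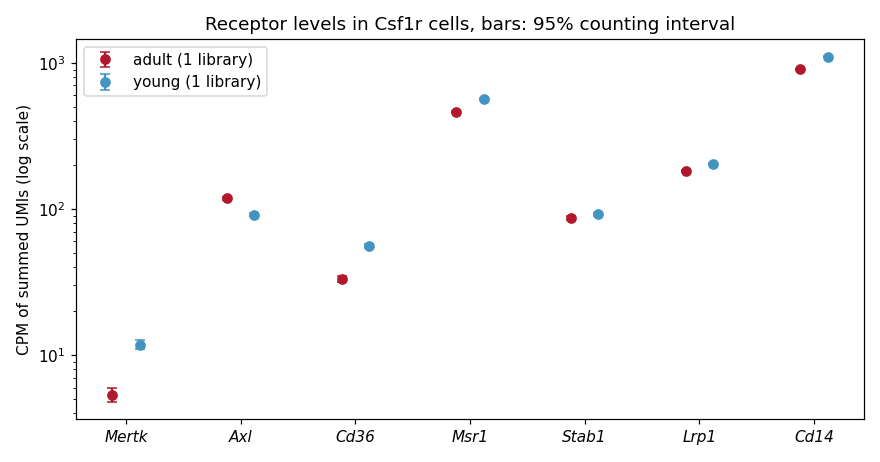
Levels of the 7 measured members in Csf1r cells, in CPM of summed UMIs on a log axis, with 95% Poisson intervals for the adult and the young library. Mertk (5.36 against 11.8 CPM) and Cd36 (33.2 against 55.5 CPM) lie lower in the adult library, and Axl (118 against 91.2 CPM) lies higher.

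Promoter sequence is shown for the 2 members that were called and for Axl, which lay in the opposite direction, so that the 3 can be read side by side. Promoters of 7 of the 9 members were in a RefSeq table on GRCm38.p6. The 250 bases before a RefSeq start are printed 5′ to 3′ on the gene's strand. They come from chr2:128698665-128698914 (plus) for Mertk, chr5:17835897-17836146 (minus) for Cd36 and chr7:25788734-25788983 (minus) for Axl. The Mertk and Axl windows lie just outside the gene bounds given above. The Cd36 window lies inside them, so it precedes an internal start and not the gene's outer 5′ end. Other Cd36 starts were not examined. Capitals mark matches, on either strand, to the 3 motifs searched.
Mertk: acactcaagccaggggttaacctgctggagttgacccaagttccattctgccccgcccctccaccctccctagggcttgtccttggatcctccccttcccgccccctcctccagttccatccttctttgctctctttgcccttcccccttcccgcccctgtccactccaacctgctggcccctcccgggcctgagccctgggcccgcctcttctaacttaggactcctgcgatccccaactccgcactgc
Cd36: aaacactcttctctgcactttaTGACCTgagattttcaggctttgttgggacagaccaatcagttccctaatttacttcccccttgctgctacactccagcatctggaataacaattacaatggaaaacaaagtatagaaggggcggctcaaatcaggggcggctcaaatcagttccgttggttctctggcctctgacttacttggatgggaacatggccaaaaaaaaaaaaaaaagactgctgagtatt
Axl: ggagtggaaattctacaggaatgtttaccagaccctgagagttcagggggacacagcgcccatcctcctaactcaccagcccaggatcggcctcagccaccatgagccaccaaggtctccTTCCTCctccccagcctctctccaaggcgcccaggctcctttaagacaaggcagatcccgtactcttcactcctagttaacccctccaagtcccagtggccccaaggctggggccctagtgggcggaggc
The motifs were AP-1 (TGANTCA), a PU.1 core (GAGGAA) and a nuclear receptor half-site (AGGTCA). They occur in 6.75%, 23.3% and 14% of 32851 promoters of the same length. Cd36 had 1 match, to the half-site, Axl had 1 match, to the PU.1 core, and Mertk had 0. The motifs did not overlap in these windows, and a match is a run of letters in this window, not a site shown to be bound.

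The lower Mertk and Cd36 levels were also seen inside macrophage/monocyte clusters, but unevenly. Clusters were built without the members and without mCherry, and 8 of them held at least 50 Csf1r cells in each library. Mertk had a ratio below 1 in 8 of 8 clusters, with an interval below 1 in 3 of them. In clusters 2, 4, 5 and 7 it was under the 10 CPM minimum in both libraries, and the means below include these clusters. In cluster 6, led by Ccl24, Mgl2 and Mrc1, Mertk had 5.01 CPM in adult and 16.6 CPM (10.5 to 24.9) in young cells. These levels rest on 37 adult and 23 young UMIs, or 0.0568 and 0.105 UMIs per cell, a narrower gap than in CPM. In cluster 1, led by Pf4, Cxcl1 and Ptgr1, Mertk had 8.50 CPM in adult and 21.7 CPM in young cells. In cluster 5, led by Cxcl14, Fcrls and Cd81, Mertk was nearly level, at 9.06 CPM in adult and 9.70 CPM in young cells. The mean log2 ratio over the 8 clusters, with the pseudocount of 5 CPM, was -0.49, against -0.70 in the pooled Csf1r cells. The pseudocount shrinks ratios at such low levels, and the geometric mean of the plain ratios was 0.570, which is 1.75-fold lower in adult cells. The libraries differed in makeup: cluster 2, led by Timp1, Dmkn and Ccl24 and lowest in Mertk, held 1302 adult and 181 young cells.

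Cd36 had a ratio below 1 in 6 of the 8 clusters, with an interval below 1 in 5. The widest gap was in cluster 7, led by Hspa1a, Hspa1b and Gpnmb, at 28.8 CPM in adult and 123 CPM in young cells, a ratio of 0.235 (0.164 to 0.329). A Cd36 UMI was found there in 15.1% of adult and 36.1% of young cells. In cluster 2 the ratio was 1.30 (0.94 to 1.84). The mean log2 ratio over the clusters was -0.48 and the geometric mean of the plain ratios 0.693, and without cluster 7 the pooled log2 ratio was -0.60 in place of -0.66.

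Axl had an interval above 1 in 5 of the 8 clusters and below 1 in 1, and the mean log2 ratio was 0.19. Cluster 5 had the highest level, 169 CPM in adult and 114 CPM in young cells, a ratio of 1.48 (1.35 to 1.64). Cluster 1, which had the highest Cd14 level, ran the other way for Axl, at 37.3 CPM in adult and 50.7 CPM in young cells. Cd14 itself averaged a log2 ratio of -0.03 over the clusters, against -0.29 pooled.

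Stab1, level in most clusters, had 108 CPM in adult and 180.1 CPM in young cells of cluster 6, a ratio of 0.599 (0.519 to 0.694). That gap was in CPM only. A Stab1 UMI was found in 61.1% of adult and 55.3% of young cells there, with 1.22 and 1.14 UMIs per cell. Lrp1 averaged a log2 ratio of -0.06 and Msr1 of -0.16 over the 8 clusters. A further cluster led by Selenop, Trf and Apoe held 17 adult and 135 young cells, and there Mertk had 32.3 CPM in young cells, the highest Mertk level of any cluster of 50 or more cells.

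**Figure D2:**
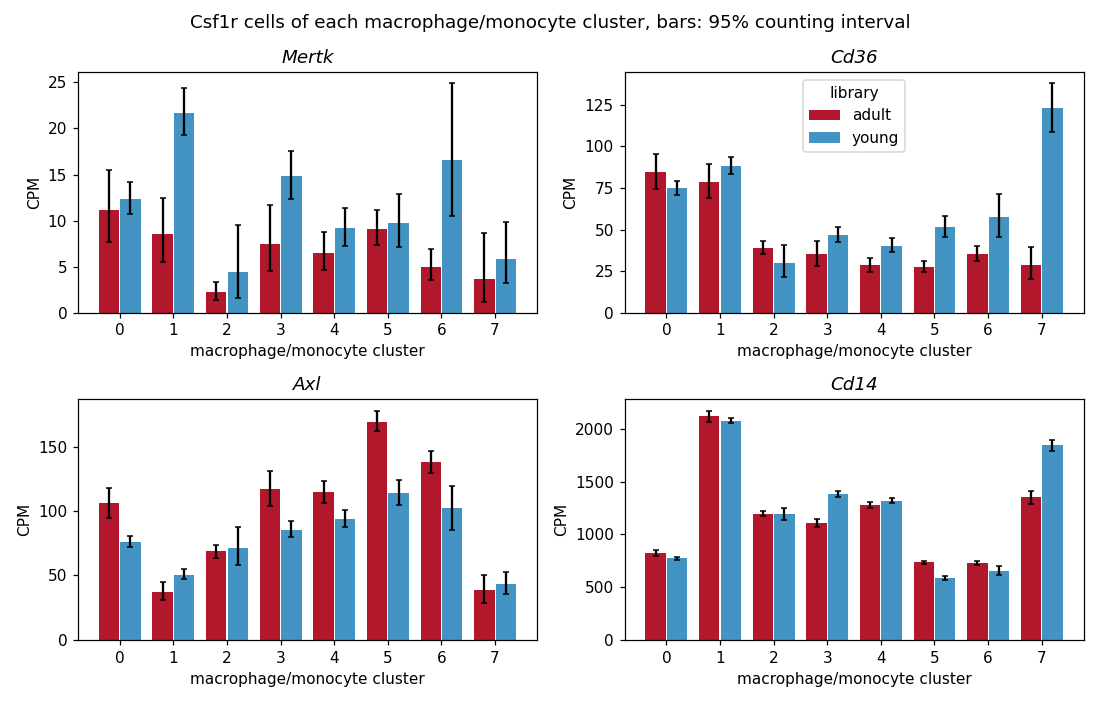
Levels of Mertk, Cd36, Axl and Cd14 in Csf1r cells of macrophage/monocyte clusters 0 to 7, as bars in CPM with 95% Poisson intervals, adult left of young. Mertk is lower in the adult bar of every cluster, Cd36 differs most in cluster 7 (28.8 against 123 CPM), and Axl is highest in cluster 5. Mertk is under 10 CPM in both libraries in clusters 2, 4, 5 and 7.

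Several of the receptors had their highest level in macrophage/monocyte cells, while Cd14 and Axl did not. Among the 5 classes with at least 50 cells in each library, the level was highest there in both libraries for 4 of the members with at least 10 CPM there in each library, Cd36, Msr1, Stab1 and Lrp1. After thinning it was highest there for 3 of them, and Lrp1 had 231 CPM (156 to 329) in 26 adult neutrophils, against 209 CPM (202 to 215) in adult macrophage/monocyte cells. Msr1 had 542 CPM in adult and 658 CPM in young macrophage/monocyte cells, against 142 CPM and 212 CPM in T cells, whose level is taken here as the background. Whether free RNA or doublets supplied the UMIs in T cells was not tested. Stab1 had 104 CPM in adult and 109 CPM in young macrophage/monocyte cells, against 26.8 CPM and 38.8 CPM in T cells. Mertk had 6.10 CPM in adult and 13.7 CPM in young macrophage/monocyte cells, against 1.92 CPM and 2.42 CPM in T cells, and was highest there in both libraries too, though under the 10 CPM minimum in adult cells. The Mertk intervals overlapped those of neutrophils (0.287 to 8.55 CPM in adult and 3.27 to 19.4 CPM in young cells).

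Cd14 was highest in neutrophils, the class led by S100a9 and S100a8, at 3138 CPM (3020 to 3260) in adult and 3475 CPM (3336 to 3619) in young cells. Macrophage/monocyte cells had 1044 CPM in adult and 1287 CPM in young cells. The neutrophils were shallow, with medians of 1970 UMIs in adult and 2218 UMIs in young cells, and 92.3% and 91.9% of them still held a Cd14 UMI. Among the 26 adult and 23 young neutrophils with at least 5000 UMIs, thinned to that depth, Cd14 had 1346 CPM (1154 to 1561) and 2113 CPM (1856 to 2396), against 1074 CPM and 1342 CPM in macrophage/monocyte cells treated alike. Cluster 11, led by Ccr7, Ccl22 and Ccl17 and left unnamed, had 654 CPM in adult and 871 CPM in young cells.

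Axl was the measured member that lay above its T cell level, in CPM, in the mCherry-rich cells. These are 525 adult and 544 young cells in 2 clusters with medians of 44.0 and 115 mCherry UMIs, given no cell type here. Axl had 113 CPM in adult and 146 CPM in young mCherry-rich cells, above the 40.2 CPM and 46.0 CPM in T cells. The other 6 measured members lay below their T cell level in CPM in both libraries. The mCherry-rich cells were deeper, with medians of 28745 UMIs in adult and 22729 UMIs in young cells, against 4375 and 8568 in T cells. Per cell the order was mixed: Lrp1 had 0.724 UMIs against 0.333 in T cells in the adult library, and 0.882 against 1.08 in the young. The Mertk level in T cells rests on 2 UMIs in each library. Msr1, for example, had 29.8 CPM in adult and 50.7 CPM in young mCherry-rich cells. After thinning, 39.2% of adult and 40.3% of young mCherry-rich cells held an Axl UMI, against 11.8% and 20.4% of T cells. Cluster 11 had 148 CPM of Axl in adult and 124 CPM in young cells, and the macrophage/monocyte and mCherry-rich intervals for Axl overlapped in the adult library (108 to 114 and 108 to 118 CPM).

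**Figure D3:**
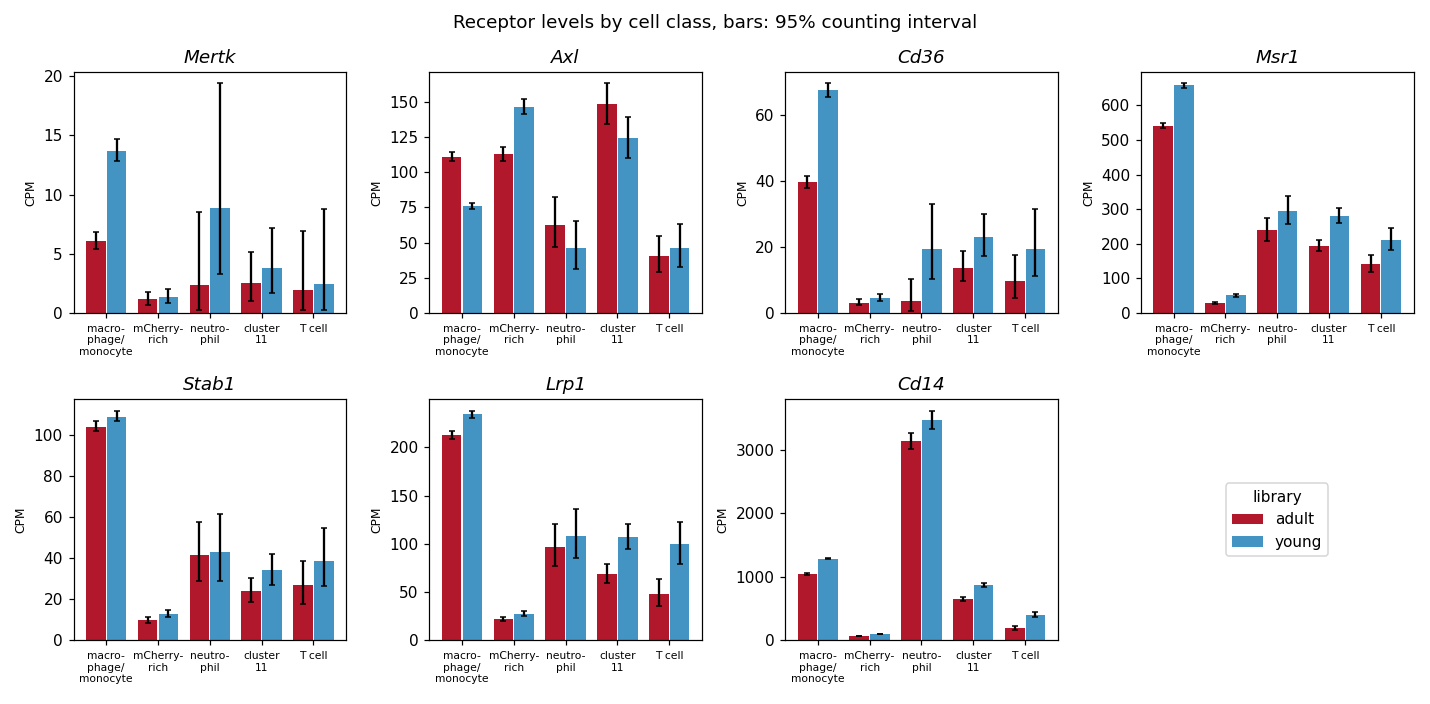
Levels of the 7 measured members in 5 cell classes, as bars in CPM with 95% Poisson intervals, adult left of young. Axl in mCherry-rich cells reaches 113 CPM in the adult and 146 CPM in the young library while the other members are near their lowest there, and Cd14 peaks in neutrophils.

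Splitting the Csf1r cells by detection of Ly6c2, a surface marker of inflammatory monocytes, separated the receptors little. Ly6c2 was detected in 79.4% of adult and 91.1% of young Csf1r cells. A member counted as called in a split where it passed the limit in the same direction in both libraries, and 0 members did, against 0.693% of features. Msr1 came nearest, at 486 CPM in adult cells with Ly6c2 and 355 CPM in those without, a ratio of 1.37, and at 577 CPM and 419 CPM in young cells, a ratio of 1.38. The mCherry level was 373 CPM with Ly6c2 and 694 CPM without in adult cells, and 420.3 CPM and 414 CPM in young cells. The median log2 ratio of the measured members was 0.24 in adult and 0.05 in young cells. Inside macrophage/monocyte clusters it was 0.17 and -0.03, and after thinning 0.08 and -0.03. Ly6c2 itself had 469 CPM in adult and 837 CPM in young cells of T cell cluster 12, and the source of these UMIs was not tested. A split of thinned cells at the 75th and 25th percentiles of Ly6c2 UMIs (the high and low ends), chosen after these values were seen, also called 0 members, against 5.28% of features.

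By C1qa, the complement gene that marks mature macrophages, Axl lay higher and Cd14 lower with detection. C1qa was detected in 62.9% of adult and 69.6% of young Csf1r cells, and 0 members were called in both libraries, against 2.76% of features. Axl had 131 CPM in adult cells with C1qa and 87.3 CPM in those without, a ratio of 1.5 (1.42 to 1.59), and 96.3 CPM and 74.3 CPM in young cells, a ratio of 1.30 (1.22 to 1.38). Cd14 had 818 CPM in adult cells with C1qa and 1103 CPM in those without, and 1013 CPM and 1400 CPM in young cells, with ratios of 0.742 and 0.723. The neutrophil marker sum was also lower with C1qa, at 155 CPM against 311 CPM in adult and 97.0 CPM against 329.5 CPM in young cells, and inside macrophage/monocyte clusters the Cd14 ratios were 0.794 and 0.781. Mertk had 6.15 CPM in adult cells with C1qa and 3.46 CPM in those without, and 12.3 CPM and 10.4 CPM in young cells. The mCherry level was 473 CPM with C1qa and 355 CPM without in adult cells, and 454 CPM and 308 CPM in young cells.

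The high and low ends by C1qa again called 0 members in both libraries, against 2.81% of features. Axl had 144 CPM at the high and 85.1 CPM at the low end in adult cells, a ratio of 1.70 (1.52 to 1.90), and 83.0 CPM and 67.4 CPM in young cells, a ratio of 1.23. Mertk had 17.0 CPM at the high and 11 CPM at the low end in young cells, a ratio of 1.54, and 8.04 CPM and 3.62 CPM in adult cells, under the minimum level. Among thinned cells divided at the medians of both genes, Axl in the adult library had 140.3 CPM in cells low in Ly6c2 and high in C1qa and 77.7 CPM in the opposite subset. In young cells those subsets had 82.8 CPM and 65.1 CPM.

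By Hmox1, the haem-degrading enzyme induced when red cells or oxidised lipid are taken up, Cd36 lay higher with detection. Hmox1 was detected in 59.0% of adult and 78.0% of young Csf1r cells, and 0 members were called, against 0.974% of features. Cd36 had 37.7 CPM in adult cells with Hmox1 and 25.5 CPM in those without, a ratio of 1.48 (1.33 to 1.64), and 58.2 CPM and 42.1 CPM in young cells, a ratio of 1.38 (1.26 to 1.52). Mertk ratios were 1.36 in adult and 1.37 in young cells. The mCherry level was 471 CPM with Hmox1 and 382 CPM without in adult cells, and 455 CPM and 252 CPM in young cells. At the high against the low end of Hmox1, 0 members were called in both libraries, against 1.73% of features. In young cells Axl then had 47.8 CPM at the high and 86.9 CPM at the low end, a ratio of 0.550 (0.475 to 0.634), and Cd36 82.1 CPM and 53.9 CPM. In adult cells the high end began at 1 Hmox1 UMI and the low end held 0, so that split is detection itself. There Axl had 91.8 CPM with Hmox1 and 117 CPM without.

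By Mrc1, the mannose receptor, Mertk had a wider gap than any member in the other splits by detection, in the adult library. Mrc1 was detected in 19.3% of adult and 6.88% of young Csf1r cells, and 0 members were called in both libraries, against 2.01% of features. Mertk had 8.71 CPM in adult cells with Mrc1 and 4.39 CPM in those without, a ratio of 1.98 (1.55 to 2.52) under the minimum level, and 18.1 CPM and 11.3 CPM in young cells, a ratio of 1.60 (1.29 to 1.97). With cells thinned, Mertk was called in both libraries, at 11.1 CPM with Mrc1 and 5.02 CPM without in adult cells and 28.2 CPM and 12.5 CPM in young cells. Only 416 adult and 170 young thinned cells held Mrc1. The share of all features called in the thinned split was not recorded, so this call has no background beside it. Lrp1 ratios were 1.32 in adult and 1.26 in young cells. The cells also differed in mCherry, at 157 CPM with Mrc1 and 519.6 CPM without in adult cells. In young cells it was 172 CPM and 441 CPM. The median log2 ratio of the measured members in this split was 0.19 in adult and 0.15 in young cells. Inside macrophage/monocyte clusters it was 0.09 and 0.01. Cells with Mrc1 were deeper, with medians of 13283 against 9790 UMIs in adult and 12530 against 10360 UMIs in young cells.

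**Figure D4:**
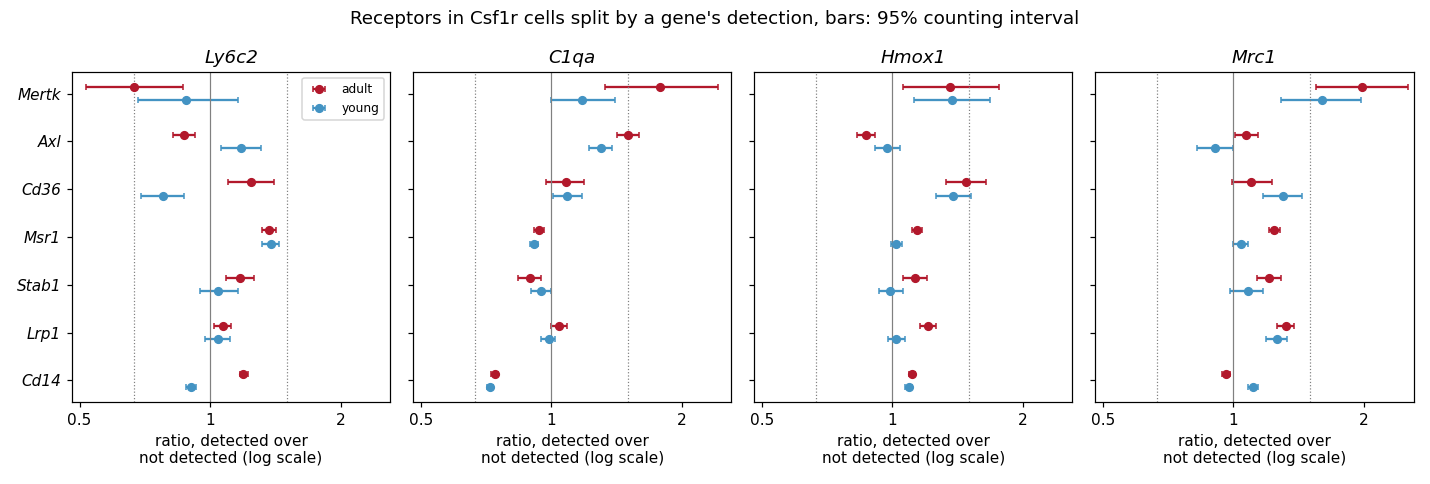
Ratio of detected over not detected for 7 members, on a log axis with 95% intervals, for 4 splits of the Csf1r cells. Dotted lines mark 1.5-fold in either direction: Mertk lies highest in the Mrc1 split (1.98 in adult and 1.60 in young cells), Cd14 lies below 1 in the C1qa split (0.742 and 0.723), and the adult level of Mertk with Mrc1 (8.71 CPM) is under the minimum of 10 CPM for a call.

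In cells outside the mCherry-rich clusters, no receptor passed the limit in both libraries by mCherry UMIs. Among thinned Csf1r cells, 30 adult and 37 young cells held 2 or more mCherry UMIs, against 3042 and 3837 cells with 0. In both libraries 0 members were called, against 0.217% of features. Cd14 had 927 CPM in adult cells with 2 or more and 1076 CPM in cells with 0, a ratio of 0.862 (0.724 to 1.02), and 973 CPM and 1346 CPM in young cells, a ratio of 0.723 (0.621 to 0.837). Cd36 had ratios of 1.83 (0.873 to 3.39) in adult and 1.08 (0.557 to 1.89) in young cells, so that differences of this size were not detectable with so few cells.

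With 1 or more UMIs against 0, a comparison added after these cell numbers were seen, 326 adult and 367 young cells entered, and 0 members were called, against 0.129% of features. Cd36 had 44.8 CPM with mCherry and 36.4 CPM without in adult cells, a ratio of 1.23 (0.95 to 1.57), and 79.6 CPM and 60.0 CPM in young cells, a ratio of 1.33 (1.11 to 1.58). Axl had 98.8 CPM with mCherry and 106 CPM without in adult cells, and 59.4 CPM and 74.9 CPM in young cells, with ratios of 0.929 and 0.793. After thinning, an mCherry UMI was found in 9.39% of adult and 9.02% of young macrophage/monocyte cells, and in 10.3% and 6.12% of T cells. Before thinning, mCherry had 111 CPM in adult and 13.3 CPM in young T cells, against 21.1 CPM and 24.4 CPM in macrophage/monocyte cells. Where these UMIs came from was not tested, and a single mCherry UMI does not show that a cell took up or made the construct.

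The members also differed in which other genes followed them across 27 cluster-by-library sums. By Pearson's r of log2 levels over 7417 genes, given as a description since the sums share libraries and depth, Mertk was most like Tmem86a (0.90), Siglec1 (0.90) and Fgd4 (0.89). Axl had the weakest best matches, Colgalt1 (0.82), Cd2ap (0.82) and Eef1akmt4 (0.81). Cd36 was most like Tmem104 (0.93), Tubb2a (0.92) and Cndp2 (0.91), and Cd14 most like Rnf149, Syk and Arrdc4 (0.98 each). Stab1 and Lrp1 were each other's closest match (0.98), and Msr1 was closest to Pid1 (0.98), Capg (0.98) and Slc7a8 (0.97). Over the 17 macrophage/monocyte sums alone, Axl ran against Cd14 (r = -0.75) and Cd36 (r = -0.60), while Stab1 and Lrp1 ran together (r = 0.69).

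In other genes of the pathway, the lipid response after uptake held the largest falls in adult Csf1r cells. Of 8 measured genes in that list 0 rose and 2 fell, with a median log2 ratio of -0.24. Among 6736 features, 1.69% were called higher and 2.87% lower, with a median of -0.03. These shares are the background for each list below too. Nr1h3, the oxysterol receptor LXRα, had 7.81 CPM in adult and 17.8 CPM in young cells, 2.28-fold lower in adult cells. Abca1, the cholesterol exporter that LXR induces, had 51.4 CPM in adult and 94.3 CPM in young cells, 1.83-fold lower in adult cells. The lipoprotein Apoe, another gene of the list, had 1443 CPM in adult and 1264 CPM in young cells, a ratio of 1.14.

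Among other receptors and bridges for dying cells, 0 of 12 measured genes rose and 2 fell, with a median log2 ratio of -0.23. Thbs1, the secreted thrombospondin that bridges dying cells to CD36, had 227 CPM in adult and 383 CPM in young cells, 1.69-fold lower in adult cells. The scavenger receptor Scarf1 had 10.5 CPM in adult and 17.9 CPM in young cells. The list of other scavenger receptors also holds Lrpap1, an LRP-associated protein. Of its 7 measured genes 1 rose and 0 fell. Olr1, the oxidised LDL receptor LOX-1, had 13.8 CPM in adult and 5.52 CPM in young cells, 2.50-fold higher in adult cells. The median of that list was -0.17.

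The remaining lists held no call. In the TAM system, the kin, proteases and signalling partners of AXL and MERTK, 0 of 5 passed, with Socs3 at a log2 ratio of 0.22 and Adam10 at 0.18. In the engulfment machinery 0 of 10 passed, with a median of 0.03, Elmo2 at -0.20 and Elmo1 at 0.18. Around CD14, 0 of 5 passed, with the TLR4 partner Ly96 at -0.49 and Tlr4 at 0.19. Among 3 do-not-eat-me signals 0 passed, with Cd47 at 0.09 and its receptor Sirpa at -0.03.

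**Figure D5:**
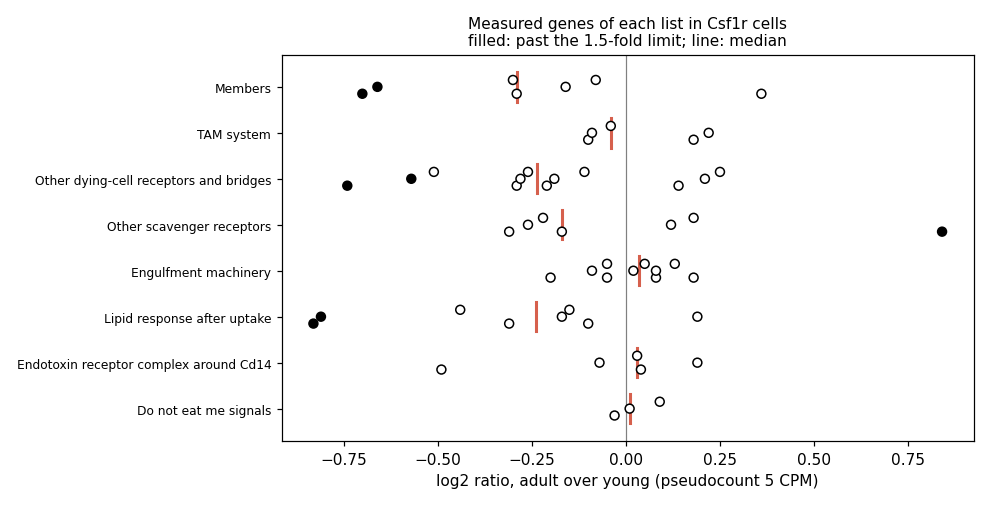
Log2 ratio of adult over young (pseudocount 5 CPM) for each measured member and for the measured genes of 7 lists in Csf1r cells, with the list's median as a line. Filled points passed the 1.5-fold limit: 2 members, 2 lipid response genes and 2 dying-cell receptors or bridges lie left of 0, and Olr1 (0.84) lies right.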

How the data were processed

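The deposited files held raw counts of UMIs per gene and barcode. Per the submitters' processing notes, Cell Ranger 3.0.2 and the mm10 build were used. Which annotation and barcode filter were used is not given in the sources used here. Members and gene lists were chosen with earlier results of these data known.

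Barcodes under 200 genes or above 10% mitochondrial UMIs were removed (505 adult and 468 young). Scrublet called 1 doublet per library, too few for it to have worked, and doublets are taken to remain. Leiden clustering (scanpy 1.11.5, 2000 variable genes without the members and mCherry, 30 components, 15 neighbours, resolution 1) gave the clusters, and classes follow listed markers. Clusters with a median of 5 or more mCherry UMIs were set apart as mCherry-rich. UMIs were summed per group and scaled to CPM. Intervals (95%) are exact Poisson for CPM, conditional binomial for ratios and exact binomial for shares. No p-value was computed, because cells are not replicates. The calling and intervals were tried on simulated Poisson counts. These leave out any spread between cells or libraries, so they do not show how the calls hold under it. Named genes are all members, every list gene that was called, and otherwise the 2 largest log2 ratios of a list. For likeness, the 3 highest correlations were taken. The upper limit for a count of 0 was set at 3 counts. A listed gene of the TAM system is not reported here and was left out of that list's counts.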

Additional observations from a re-analysis of the deposited data

Results flagged for a closer look

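For 5 member and split pairs the ratio of detected over not detected lay on opposite sides of 1 in the 2 libraries, each with an interval without 1. The differences between libraries were not themselves tested. In the Ly6c2 split, Axl had a ratio of 0.872 (0.823 to 0.924) in adult and 1.18 (1.06 to 1.31) in young cells, a log2 difference of -0.41. In young cells the Axl ratio was 1.12 (0.984 to 1.27) inside macrophage/monocyte clusters and 0.976 (0.851 to 1.12) after thinning. Cd36 had ratios of 1.24 in adult and 0.777 in young cells, a log2 difference of 0.60, and the adult ratio was 0.980 (0.825 to 1.17) after thinning. Cd14 had ratios of 1.19 in adult and 0.902 in young cells, a log2 difference of 0.40. In the Mrc1 split, Axl had ratios of 1.07 in adult and 0.905 in young cells, a log2 difference of 0.23, and Cd14 0.960 and 1.11, a log2 difference of -0.21.

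The age ratio of Axl differed between classes, which was likewise not tested. Adult over young, it was 1.46 (1.41 to 1.52) in macrophage/monocyte cells and 0.769 (0.725 to 0.817) in mCherry-rich cells, a log2 difference of 0.88. Within the mCherry-rich clusters it was 0.921 (0.808 to 1.05) in cluster 8 and 0.758 (0.708 to 0.811) in cluster 9. After thinning, mCherry-rich cells had 110.4 CPM in adult and 115 CPM in young cells.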

How the results depend on the processing

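Of the counts of called members under other settings, 88 kept their value within the limits set and 7 moved. The count of members lower in adult Csf1r cells was 0 in place of 2 as a mean within clusters and as a mean within macrophage/monocyte clusters, both of log2 ratios with the 5 CPM pseudocount, and 1 (Mertk) as a geometric mean of plain ratios within those macrophage/monocyte clusters. The last 2 were added after seeing the data. Without a minimum level, 1 member (Gas6) was higher in adult cells and 1 (Mertk) was higher with Mrc1 in both libraries, in place of 0. Thinned to 5000 UMIs, 1 member (Mertk) was higher with Mrc1. With mCherry-rich clusters included, 2 members (Msr1 and Cd14) were lower with 2 or more mCherry UMIs, in place of 0. The Mertk log2 ratio ran from -1.01 (pseudocount 1 CPM) to -0.33 (pseudocount 20 CPM). The Axl log2 ratio was 0.51 in macrophage/monocyte clusters only and 0.16 as a mean within clusters. The causes of these shifts were not tested. No paired analysis was possible because each age has 1 library. Rare members (Gas6, Marco) and the mCherry split rest on few UMIs or cells.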

Other observations

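The adult library held 9 cells in a cluster led by Igfbp7, Col1a1 and Meg3, and the young library held 0. These adult cells had Lrp1 at 370.3 CPM from 36 UMIs and Axl at 123 CPM (63.8 to 216), while Msr1, Cd36 and Mertk had 0 UMIs. In the young library 10 Marco UMIs were spread over 4 cells, 5 of them in a single cell.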
